A study of Mus musculus with 15 samples.

Results

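Gene and circular RNA levels at embryonic day 16 (E16) and at birth (P0) were compared in cells of the ventral midbrain that were sorted by flow cytometry for green fluorescent protein (GFP). The mice were of the Pitx3-GFP genotype, in which GFP marks cells that use Pitx3, the gene of a transcription factor of midbrain dopamine neurons. All 6 libraries, 3 at E16 and 3 at P0, share this genotype, tissue and sort, and the labels name no agent given at either age. The members were chosen by the 6 libraries: every gene of the time series table (10781), and the 1630 of 7528 circular RNAs with a mean of at least 2 normalized reads over the 9 time series libraries. The whole series has 15 libraries, and the 3 time series libraries of embryonic day 14 (E14) entered the same fit to estimate the spread. Material came from 3 litters, no source says that each replicate was its own litter, and p-values therefore cover the spread of these libraries, which may be technical in part. The kind of GFP allele, and whether 1 functional Pitx3 copy was lost with it, is not given in the sources used here.

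Between E16 and birth a midbrain dopamine neuron has left the cell cycle and reached its place, and it extends its axon toward the forebrain and starts to build synapses. Dopamine is made by tyrosine hydroxylase (Th) and aromatic amino acid decarboxylase (Ddc), loaded into vesicles by the transporter Slc18a2 and taken back up by the transporter Slc6a3. Transcription factors such as Nr4a2, Pitx3, En1 and Foxa2 specify these neurons and keep them in their state.

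The E16 libraries held 25106370 to 28122592 gene reads and the P0 libraries 19373239 to 33386535, as recovered from the spacing of the deposited values. All 13 listed markers of dopamine neurons had a row in the gene table. The gene table holds no gene with a mean under 107 normalized reads, so genes with no row, among them the defining astrocyte markers Aldh1l1, Aqp4, Gfap, Slc1a3 and Gja1, were not analysed here. P0 replicate 3 stood apart from the other P0 libraries in some genes known from glia. Apoe, Sparcl1 and Fabp7 were picked from longer marker lists with earlier results of these data known. Their summed level was 1379.7, 1103 and 1401 normalized reads at E16 and 4527, 3799.8 and 10297 at P0. All measured astrocyte markers together were at 16239, 16735 and 16224 at E16 and 18093, 18728 and 25124 at P0. Slc1a2 and Vim, other members of these lists, did not stand apart in P0 replicate 3. The 4 Y-linked genes Eif2s3y, Ddx3y, Kdm5d and Uty together were at 3399, 4689 and 4935 at E16 and 11219.9, 8289.8 and 6087 at P0, and Xist, the RNA of the inactive X chromosome, was at 14224, 8705 and 7417 normalized reads at E16 and 4511, 6700.4 and 5781 at P0. At E14 the same 4 Y-linked genes together were at 8535, 8761 and 7224, so the E16 libraries stood lowest. The levels of sex-linked RNAs thus differed between the ages without a steady course, and the part of the libraries' sex in the other results was not tested. In sorted cells measured in bulk, fewer cells of a type and less RNA per cell cannot be told apart.

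Of 10781 genes tested with limma, 3605 (33.4%) passed an adjusted p of 0.05, 1816 (16.8%) higher and 1789 (16.6%) lower at P0. Most of these changes were small: 95 of the higher and 50 of the lower genes changed by at least 2-fold, and the median size over the called genes was 0.43 on the log2 scale. The E16 and P0 libraries did not overlap for 44.8% of genes. The median log2 fold change of all genes was -0.01. Log2 fold changes are P0 minus E16 on log2(normalized reads + 1), so a value of 1 is a doubling, and rises and falls are given on this scale throughout. Leaving out E16 replicate 3 took the lower count to 1145.

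The largest rise was that of Apoe (chr7:19696109-19699188, GRCm38), the lipid carrier known mainly from astrocytes, at 125, 76.1 and 149.8 normalized reads at E16 and 725, 672 and 2216 at P0. All 3 P0 libraries lay above all 3 E16 libraries, and P0 replicate 3 was far above the other P0 libraries. The log2 fold change was 3.18 (SE 0.35), with a limma adjusted p of 2.92e-05, and 2.62 without P0 replicate 3. Sparcl1, a matrix protein of astrocytes and some neurons, followed the same order of libraries, at 569.5, 465 and 664 normalized reads at E16 and 2364, 2047 and 4788 at P0, and rose by 2.35 (SE 0.24), or 1.97 without P0 replicate 3. The next largest rises were those of the collagen genes Col11a2 and Col6a6, described further on, and of Tmem191c, a membrane protein gene that overlaps Gm49573 on its own strand and Pi4ka on the other. Tmem191c was at 364, 364 and 381 normalized reads at E16 and 1345, 1430 and 1457 at P0, a rise of 1.93 (SE 0.09) with little spread within either age. Aifm3, a relative of apoptosis-inducing factor, Amy1, an amylase gene, Ryr1, a calcium release channel, Matk, a tyrosine kinase, and Stag3, a cohesin subunit, rose by 1.76, 1.65, 1.63, 1.54 and 1.51. Amy1 and Stag3 are known best from pancreas or salivary gland and from meiosis. The unnamed transcript Gm44168, which overlaps Gm5577 on its strand, closes the 12 largest rises. Amy1 overlaps Rnpc3 on the same strand, and the counting rule for overlapping genes is not given in the sources used here.

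Among the falls, Cdkn1c (chr7:143458339-143461050), an inhibitor of cyclin-dependent kinases that acts as neurons leave the cell cycle, was the largest. It was at 1854, 1957 and 1849 normalized reads at E16 and 677, 673 and 407 at P0, with P0 replicate 3 the lowest, and the log2 fold change was -1.72 (SE 0.17). Sinhcaf, a subunit of the Sin3 corepressor, fell from 869 ± 54.8 to 275 ± 50.3 normalized reads (SD, n = 3 per age; log2 fold change -1.67, SE 0.14). Bcl11b, a zinc finger transcription factor, was at 493, 517 and 612 normalized reads at E16 and 188, 171 and 228 at P0, and no P0 library reached an E16 library. Cd24a, a surface protein of young neurons, was the most abundant of the 12 largest falls, at 15612, 15916 and 16266 normalized reads at E16 and 6389, 6466 and 5458 at P0 and a log2 fold change of -1.39 (SE 0.08). Draxin, a secreted axon guidance protein, Ebf2, an early B cell factor family member, St6gal1, a sialyltransferase, and Cnn3, an actin-binding calponin, fell, at log2 fold changes of -1.40, -1.30, -1.45 and -1.31. Ankrd37, a gene known to respond to hypoxia, and Rnf122, a ubiquitin ligase, fell by 1.49 and 1.63 on the log2 scale, the latter with P0 replicate 3 at the lowest level of 62.5. Gm37735, an unnamed transcript among these falls, lies inside Erbb4 on its strand, so its reads cannot be told apart from intronic reads of that gene.

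**Figure D1:**
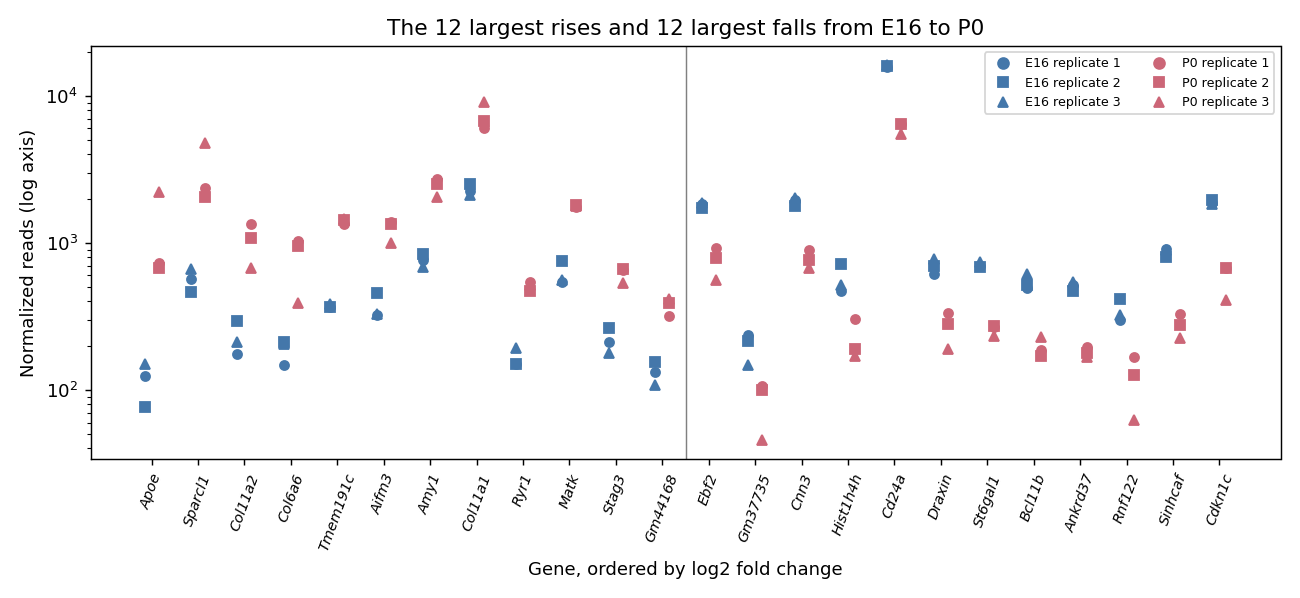
Normalized reads (log axis) of the 12 genes with the largest rises, left of the line, and the 12 with the largest falls, right of it, in each of the 3 E16 and 3 P0 libraries; marker shapes are the replicate numbers. The E16 and P0 points of each gene do not overlap, which the rule for naming them required, and P0 replicate 3 is the highest P0 point for Apoe and Sparcl1 and the lowest for Col11a2 and Col6a6.

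Genes of dopamine handling rose in part. Of 20 measured, 7 rose and 1 fell, beside 16.8% higher and 16.6% lower over all genes. The median log2 fold change was 0.21. That median was 0.08 without P0 replicate 3, 0.34 without P0 replicate 1 and 0.33 without E16 replicate 2. The vesicle transporter Slc18a2 was at 8319, 8593 and 7983 normalized reads at E16 and 11807, 13355 and 14975 at P0, which is 0.68 (SE 0.09) on the log2 scale. Aldh1a1 (chr19:20492715-20643465), an aldehyde dehydrogenase of the ventral nigral neurons, was at 89879, 78397 and 89565 normalized reads at E16 and 151649.5, 173889 and 178449 at P0, the largest rise of the list at 0.97 (SE 0.12). Both genes had every P0 library above every E16 library. Maoa, which breaks down monoamines, and the nicotinic receptor subunits Chrnb3 and Chrna6 rose by 0.53, 0.52 and 0.35. The synthesis enzyme itself did not pass the test: Th was at 7446, 10904 and 8431 normalized reads at E16 and 9162, 10132 and 11964 at P0, with overlapping ages and a log2 fold change of 0.23 (SE 0.12), 95% interval -0.03 to 0.50. Slc6a3 was at 18545, 23359.5 and 22089 normalized reads at E16 and 20001, 28473 and 41949 at P0, so that the reuptake transporter spread over a wider range at P0 than at E16, with P0 replicate 3 highest (log2 fold change 0.44, SE 0.19, limma adjusted p = 0.0871). Slc6a3 passed the threshold without P0 replicate 1 (0.70) and was at 0.17 without P0 replicate 3. Th passed without E16 replicate 2 (0.39) and was at 0.11 without E16 replicate 1 and 0.13 without P0 replicate 3. Aldh2, another aldehyde dehydrogenase, was the 1 gene of the list that fell (-0.40, SE 0.11), and its call was lost without P0 replicate 2.

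The transcription factors of these neurons moved the other way. Of 25 measured, 16 fell and 0 rose, beside 16.6% lower and 16.8% higher over all genes. Their median was -0.40. Pitx3, the gene that drives the GFP label, was at 469, 569 and 629.9 normalized reads at E16 and 359.5, 391 and 394 at P0, and every P0 library was below every E16 library (log2 fold change -0.53, SE 0.11, limma adjusted p = 0.00332). Nr4a2, the nuclear receptor needed for the dopamine phenotype, was at 8083, 7722 and 9046 normalized reads at E16 and 6939, 7792 and 6611 at P0, with P0 replicate 2 above the lowest E16 library. Its log2 fold change of -0.22 (SE 0.08) had a limma adjusted p of 0.0499 at the edge of the threshold, and the call was lost without any 1 of E14 replicates 1, 2 or 3, E16 replicates 1 or 3, or P0 replicates 1 or 3. Ebf3 was at 5842, 5958 and 6766 normalized reads at E16 and 4052, 4065 and 3199 at P0 and fell, at a log2 fold change of -0.72 (SE 0.09). Pbx3, Zfhx4, En1 and Foxa2 had log2 fold changes of -0.64, -0.71, -0.44 and -0.39, and each passed the test. The 9 factors that did not pass include Lmx1b, Otx2 and Sox6, the last of which marks nigral neurons and was at 1272, 1332 and 1454 normalized reads at E16 and 839.7, 1316 and 1611 at P0.

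Of 17 genes that set apart dopamine neuron subtypes, 7 rose and 1 fell (2 without P0 replicate 1). Over all genes 16.8% rose and 16.6% fell. The list shares Aldh1a1, Sox6 and Otx2 with those above. Calb1, calbindin of the dorsal tier and tegmental neurons, was at 2215, 2332 and 1996 normalized reads at E16 and 5027, 4964 and 4555 at P0 and rose by 1.15 (SE 0.09). Tacr3, a neurokinin receptor, and Neurod6, a factor of a tegmental subset, rose by 0.70 and 0.55. Slc32a1, which loads GABA into vesicles, was at 479, 597 and 579 normalized reads at E16 and 383, 351 and 292 at P0 and fell (log2 fold change -0.69, SE 0.13). Gad1, which makes GABA, fell likewise, from 207 ± 31.4 to 121 ± 10.9 normalized reads (SD, n = 3 per age).

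**Figure D2:**
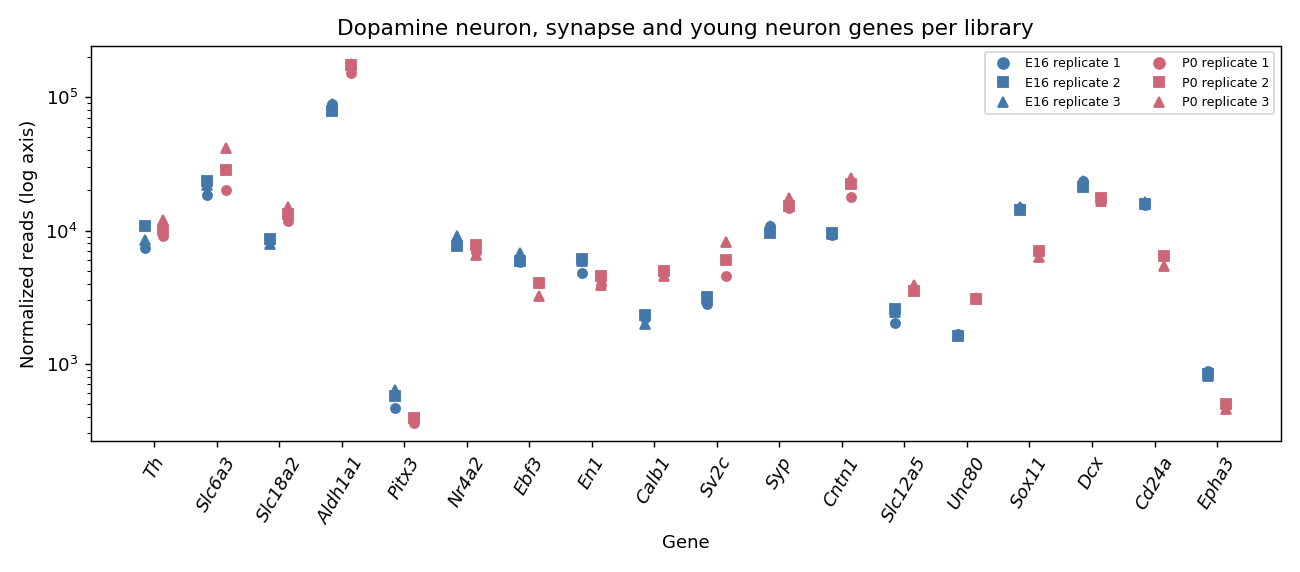
Normalized reads (log axis) of 18 neuronal genes in each of the 3 E16 and 3 P0 libraries; marker shapes are the replicate numbers. Slc18a2, Aldh1a1, Calb1, Sv2c, Syp, Cntn1, Slc12a5 and Unc80 have all P0 points above the E16 points; Pitx3, Ebf3, En1, Sox11, Dcx, Cd24a and Epha3 have them below; Th, Slc6a3 and Nr4a2 overlap.

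Synaptic genes rose more often than they fell. Of 52 genes of synaptic vesicles and release, 18 rose and 2 fell, beside 16.8% higher and 16.6% lower over all genes. The median was 0.22. Without P0 replicate 3 the rises were 12, with 1602 instead of 1816 over all genes, and the median 0.13. Syp, a vesicle membrane protein, was at 10808, 9665 and 10897 normalized reads at E16 and 14775, 15386 and 17688 at P0 (log2 fold change 0.61, SE 0.08). Sv2c, a vesicle protein of dopamine terminals, was at 2797, 3158 and 3085 normalized reads at E16 and 4536, 6026 and 8186 at P0, rising by 1.01 (SE 0.19) with P0 replicate 3 highest, or 0.80 without it. Napb, an adaptor for SNARE disassembly, Ppfia4, a liprin of the active zone, and Vamp1, a SNARE protein, rose by 0.76, 0.77 and 0.79. The 2 that fell were Rph3a and Syt4, at -0.37 and -0.22, and the falls were 0 without E16 replicate 3 or P0 replicate 2, 1 without E16 replicate 1 or P0 replicate 1 or 3, and 5 without E16 replicate 2.

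Receptors and adhesion molecules were counted against shares of 16.8% higher and 16.6% lower over all genes. Of 48 subunits and partners of glutamate and GABA receptors 17 rose and 4 fell, the latter count 2 without E16 replicate 3 or P0 replicate 3. Grin2d, an NMDA receptor subunit, Gabra4 and Gabrb1, GABA-A receptor subunits, and Glrb, the anchoring glycine receptor subunit, rose by 0.91, 0.89, 0.70 and 0.85. Grm8, a presynaptic glutamate receptor, fell, at a log2 fold change of -0.66. Of 65 adhesion genes 16 rose and 5 fell. The rises were 12 without P0 replicate 2 and 13 without E16 replicate 3, settings in which 1272 and 1351 of all genes rose. Cntn1, a contactin of axons, was at 9303, 9624 and 9449 normalized reads at E16 and 18022, 22321 and 24821 at P0, a rise of 1.19 (SE 0.11), and no P0 library overlapped the E16 range.

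Of 68 ion channel genes 29 rose and 4 fell, beside 16.8% higher and 16.6% lower over all genes. Their median was 0.17, and the lower count was 2 without E16 replicate 3 or P0 replicate 2. The sodium leak channel Nalcn was at 3338, 3449 and 3430.4 normalized reads at E16 and 5120.4, 5325 and 4659 at P0, and its partner Unc80 was at 1675, 1619 and 1633 normalized reads at E16 and 3044, 3064 and 3102 at P0. These 2 rose by 0.56 and 0.90, while Unc79, another subunit of the same channel, was at 2169, 2155 and 2049 normalized reads at E16 and 1723, 1722 and 1668 at P0 and fell, at a log2 fold change of -0.32 (SE 0.07). Kcnt1, a sodium-activated potassium channel, Trpc6, a cation channel, Kcnj9, a girk channel, and Scn2a, a sodium channel, rose by 1.14, 1.06, 0.83 and 0.51. Among 8 chloride transporters and channels, the exporter Slc12a5 was at 2021, 2556 and 2452 normalized reads at E16 and 3606, 3526 and 3892 at P0 and rose by 0.66 (SE 0.09). The importer Slc12a2 was at 2148, 1902 and 1924 normalized reads at E16 and 2282, 2241 and 1944 at P0, with overlapping ages and a log2 fold change of 0.11 (SE 0.08). The balance of these 2 transporters is known to set whether GABA excites or inhibits a neuron. Of 62 genes of the mature neuron and axon, 25 rose, among them Atp2b4, a calcium pump, Sptbn4, a spectrin of the initial segment, and Dync1i1, a dynein chain, at 0.95, 0.85 and 0.99. The 1 that fell was Nefm, a neurofilament, at 801, 437 and 596 normalized reads at E16 and 316, 274 and 315 at P0, and leaving out E14 replicate 1 or 3, E16 replicate 2, or P0 replicate 1 or 3 gave 2.

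Genes of growing neurites and young neurons fell more often than they rose. Of 41 measured, 18 fell and 2 rose (1 without P0 replicate 3), with a median of -0.21. Sox11, a transcription factor of new neurons, was at 14685, 14348 and 15156 normalized reads at E16 and 6967, 7069 and 6330.2 at P0, a log2 fold change of -1.12 (SE 0.08). Dcx, a microtubule protein of migrating neurons, was at 23459, 21379.7 and 23623 normalized reads at E16 and 16774, 17496 and 16621 at P0 (-0.43, SE 0.07). Ina, an early neurofilament, and Tmsb10, an actin-binding thymosin, fell by 0.85 and 0.72 on the log2 scale. Of 66 genes of axon guidance and migration 9 rose and 14 fell, near the shares of 16.8% and 16.6% over all genes (9 fell without P0 replicate 2 or without P0 replicate 3). Epha3, an ephrin receptor, was at 875, 832 and 812 normalized reads at E16 and 491, 495 and 460.3 at P0, and Robo1, a Slit receptor, at 7224, 7310 and 7363 normalized reads at E16 and 5178, 5083 and 5913 at P0, both lower in every P0 library. Cxcr4, a chemokine receptor of migrating dopamine neurons, was at 486, 796 and 475 normalized reads at E16 and 368, 405 and 166 at P0; it fell, at a log2 fold change of -0.96 (SE 0.27), P0 replicate 3 was lowest, the value was -0.56 without it, and the call was lost without E16 replicate 2. Epha10, Sema4d and Slit1 rose by 0.82, 0.77 and 0.45.

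Regulators of chromatin and splicing fell more often than they rose. Their counts stand beside shares of 16.6% lower and 16.8% higher over all genes. Of 54 chromatin genes 24 fell and 6 rose. Without E16 replicate 3, 14 of them fell, and the lower calls over all genes went from 1789 to 1145. Ezh2, the methyltransferase of the Polycomb complex, was at 2377, 1778 and 2309 normalized reads at E16 and 1045, 989 and 786 at P0, a log2 fold change of -1.19 (SE 0.13). Hdac2, a histone deacetylase, fell by 0.63 on the log2 scale, and Hdac9 and Tet2, which oxidizes methylcytosine, rose by 0.73 and 0.39. Of 61 splicing and editing genes 22 fell and 8 rose, with 13 falls without E16 replicate 1, where 1570 of all genes fell. Khdrbs3 and Hnrnpc, RNA-binding proteins, fell by 0.78 and 0.77 on the log2 scale, and the editing enzyme Adarb1 rose by 0.45. Of 319 genes named Zfp, zinc finger proteins that mostly repress, 84 fell and 22 rose. Without E16 replicate 3, 45 fell, and without P0 replicate 3, where 1553 of all genes fell, 51 did. Of 20 immediate early and dissociation response genes 10 fell, among them Ier5, Gadd45a and Klf4 at -0.86, -0.84 and -0.76, and 1, Btg2, rose. The call of Btg2 was lost without E16 replicate 1 or 2 or P0 replicate 1 or 2.

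Genes of cholesterol synthesis mostly fell. Of 41 genes of cholesterol and lipid synthesis 24 fell and 3 rose, beside 16.6% lower and 16.8% higher over all genes. The median was -0.36 against -0.01 over all genes. Hmgcs1, which makes the precursor of mevalonate, was at 31671, 27202 and 31782 normalized reads at E16 and 19554, 21650 and 20596 at P0. Fdft1, which makes squalene, was at 7658, 7596 and 8928 normalized reads at E16 and 3719.6, 5024 and 4806 at P0, the largest fall of the list at -0.84 (SE 0.10). In both genes every P0 library was below every E16 library. Mvd, Idi1 and Msmo1, further enzymes of the pathway, fell, at log2 fold changes of -0.75, -0.73 and -0.72. Abca1, which exports cholesterol to Apoe, was at 269, 314 and 324 normalized reads at E16 and 571, 494 and 839 at P0 and rose by 1.04 (SE 0.16). Srebf2, the transcription factor of the pathway, was at 1069, 1345 and 1418 normalized reads at E16 and 855, 1188 and 1079 at P0, a log2 fold change of -0.30 (SE 0.12) that did not pass the test (limma adjusted p = 0.0786); it passed without E16 replicate 1 or P0 replicate 2 and was at -0.16 without P0 replicate 1.

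In the clock list of 14 genes 3 rose and 1 fell, counts too small to tell from the shares of 16.8% and 16.6% over all genes. Nr1d2, a nuclear receptor that represses clock genes, was at 598, 575 and 573 normalized reads at E16 and 1548, 1541 and 1655 at P0, a rise of 1.44 (SE 0.10). Tef, a factor of the same output pathway, was at 642, 669 and 665 normalized reads at E16 and 1062, 1165 and 1147 at P0 and rose by 0.77 (SE 0.09), and Nfil3, which competes with Tef for its sites, was at 687, 862 and 695 normalized reads at E16 and 363, 393 and 369 at P0 and fell by 0.99 on the log2 scale. Arntl, the core activator, was at 300.1, 339 and 297 normalized reads at E16 and 381, 415 and 400.1 at P0 and did not pass (limma adjusted p = 0.0647), though it did without E14 replicate 3. Without E16 replicate 1 or 2 the list had 2 falls. The time of day of tissue collection is not given in the sources used here.

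Promoters of RefSeq (GRCm38.p6), 250 bases before to 50 bases after the start site, were matched by symbol to 8218 of the 10781 genes and searched on both strands for 8 motifs. The E-box CACGTG and the overlapping octamer TCACGTGA, the cAMP response element TGACGTCA, the nuclear receptor site AAAGGTCA, the glucocorticoid response element and the AP-1 site TGAGTCA were listed at the outset, and the sterol element TCACNCCAC and the D-box TTATGNAA were added after the cholesterol and clock values were seen. Shares are of genes with a promoter, and a gene counted once if at least 1 of its promoters held the motif. The E-box was in 8.09% of all 27025 such genes, which have 32851 promoters. Its share was 12.8% of genes called higher, 11.4% of those called lower and 12.2% of all tested genes. For the other 7 motifs the share in each called direction lay within 1 percentage point of the share in all tested genes. Over all genes with a promoter the octamer was in 1.12%, the cAMP element in 2.03% and the nuclear receptor site in 1.70%. The glucocorticoid element was in 0.537% of them, the AP-1 site in 5.95% and the D-box in 3.99%. The E-box was in 8 of 31 cholesterol list genes (25.8%) and in 2 of 11 clock list genes (18.2%), lists too short to set against these shares. The sterol element was in 1 of 31 cholesterol list genes (3.23%), against 1.39% of tested genes and 1.44% of all genes with a promoter. The D-box was in 0 of 11 clock list genes. A match is only a run of letters, and a window without one says nothing of the factor. Of 5 genes looked at after their values were seen, among them Nr1d2, Tef, Hmgcs1 and Fdft1, the 3 promoters with a match are shown, with the match in capitals. The first 2 are the alternative promoters of Tef at chr15:81802423-81802722 and chr15:81811164-81811463 (plus strand), each with an E-box, and the third is that of Hmgcs1 at chr13:119690101-119690400 (plus strand), with a sterol element.
Tef, first promoter: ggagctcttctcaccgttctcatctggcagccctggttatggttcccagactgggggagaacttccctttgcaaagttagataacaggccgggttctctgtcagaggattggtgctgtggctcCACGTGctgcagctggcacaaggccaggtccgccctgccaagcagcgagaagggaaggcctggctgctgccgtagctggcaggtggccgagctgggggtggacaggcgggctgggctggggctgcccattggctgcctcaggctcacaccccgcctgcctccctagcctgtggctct
Tef, second promoter: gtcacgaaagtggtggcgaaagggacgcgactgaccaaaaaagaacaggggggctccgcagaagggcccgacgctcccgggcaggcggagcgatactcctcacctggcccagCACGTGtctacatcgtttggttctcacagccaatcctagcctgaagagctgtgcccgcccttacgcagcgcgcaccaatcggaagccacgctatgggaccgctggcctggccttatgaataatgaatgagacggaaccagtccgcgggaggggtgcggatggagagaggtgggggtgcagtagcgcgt
Hmgcs1: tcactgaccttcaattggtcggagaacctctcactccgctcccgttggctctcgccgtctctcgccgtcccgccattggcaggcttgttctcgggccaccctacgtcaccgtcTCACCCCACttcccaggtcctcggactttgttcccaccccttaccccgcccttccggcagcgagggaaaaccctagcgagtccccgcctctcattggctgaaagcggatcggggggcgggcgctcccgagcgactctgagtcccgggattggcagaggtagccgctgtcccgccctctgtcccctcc

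Genes of the extracellular matrix mostly rose. Of 18 collagen and laminin genes 14 rose and 0 fell, beside 16.8% higher and 16.6% lower over all genes. Their median log2 fold change was 0.86, and 13 rose without P0 replicate 3. Col11a1, a fibrillar collagen, was at 2269, 2513 and 2104 normalized reads at E16 and 6079.6, 6716 and 9022 at P0 (1.65, SE 0.12). Col11a2, its partner chain, was at 176, 292 and 212 normalized reads at E16 and 1342, 1074 and 674 at P0, and Col6a6, a chain of microfibrillar collagen, at 149, 212 and 204 normalized reads at E16 and 1033, 953 and 391 at P0. In the last 2 genes P0 replicate 3 was the lowest P0 library but above every E16 library. They rose by 2.15 (SE 0.23) and 1.96 (SE 0.28), and by 2.43 and 2.41 without that library. Col4a1 and Col4a2, chains of the basement membrane that are also the 2 measured markers of vessel and meningeal cells, rose by 1.35 and 1.05. The summed level of these 2 genes was 900.2, 1321 and 1044 normalized reads at E16 and 2899, 2627 and 1849 at P0, lowest in P0 replicate 3 among the P0 libraries. The other 25 of 27 markers of those cells had no row, and the part of such cells in the collagen rise was not tested.

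Markers of glia were measured to a small extent, and their counts stand beside shares of 16.8% higher and 16.6% lower over all genes. Of 35 astrocyte markers 9 had a row, of which 6 rose, namely Apoe, Sparcl1, Ttyh1, Slc6a11, Clu and Ndrg2, and 1, Slc1a2, fell. The rises were 4 without P0 replicate 3 or E16 replicate 1, and 5 without E16 replicate 3. The median log2 fold change of the 9 was 0.56, or 0.40 without P0 replicate 3 and 0.41 without E16 replicate 1. The summed astrocyte markers were at 16239, 16735 and 16224 normalized reads at E16 and 18093, 18728 and 25124 at P0. Slc1a2, the main glutamate transporter of astrocytes, was at 8119, 7207 and 7533 normalized reads at E16 and 6045, 6563 and 6680.5 at P0, so that P0 replicate 3 did not stand apart in it, and its call was lost without E16 replicate 1 or 3 or P0 replicate 1 or 2. Of 28 radial glia and progenitor markers 11 had a row, 3 rose and 3 fell. Fabp7, a lipid-binding protein typical of radial glia, was at 685, 562 and 588 normalized reads at E16 and 1438, 1081 and 3293 at P0, and Vim, an intermediate filament of the same cells, was at 1919, 1861 and 2097 normalized reads at E16 and 953, 908 and 882 at P0. These 2 markers of 1 cell type moved in opposite directions, by 1.50 (1.03 without P0 replicate 3) and -1.10. The summed level of the 11 was 21021, 20643 and 21257 at E16 and 19967, 21305 and 28279 at P0. Of 22 oligodendrocyte lineage markers 8 had a row, 4 rose and 2 fell, and the rises were 0 without P0 replicate 1, 1 without E16 replicate 3 and 2 without E16 replicate 1 or P0 replicate 2 (1 fell without any library other than P0 replicate 3); their sum was 3403 ± 103 at E16 and 4077 ± 355 at P0 (SD, n = 3 per age). Of 20 microglia and macrophage markers 2 had a row, among them Mrc1 at 507, 424 and 579 normalized reads at E16 and 240.1, 484 and 799 at P0, and 0 of 11 erythroid markers had a row. Without P0 replicate 3, Apoe, Sparcl1 and Fabp7 were still called higher and 3155 genes were called in all, 1602 higher and 1553 lower. The part of glial RNA in the other results was not tested.

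**Figure D3:**
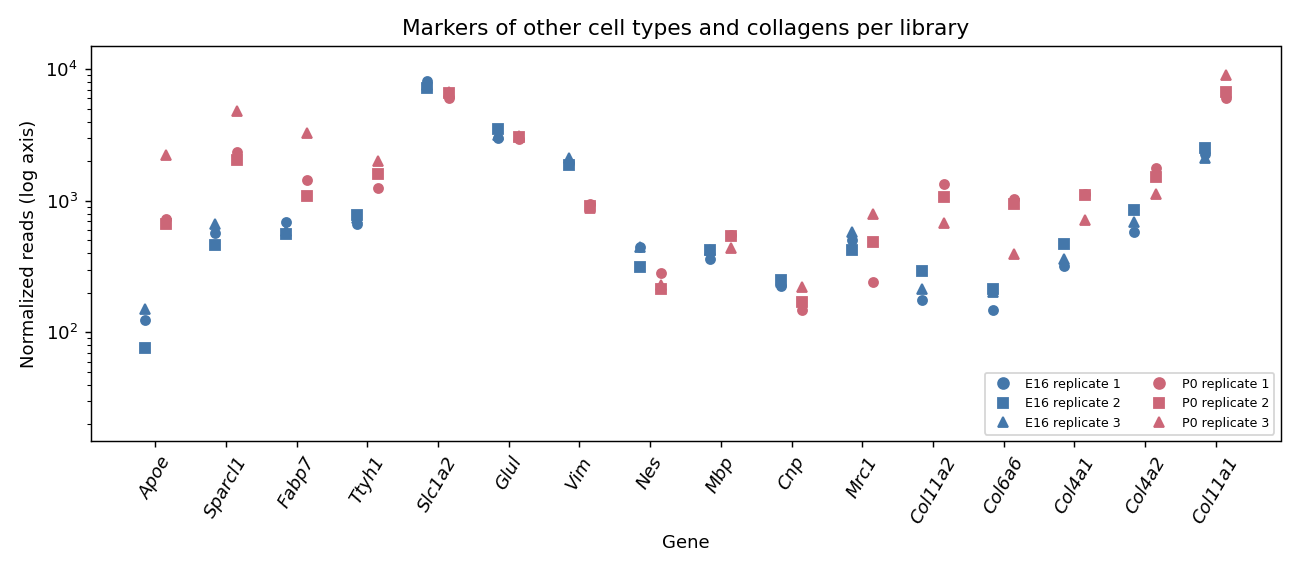
Normalized reads (log axis) of markers of other cell types and of 5 collagen genes in each of the 3 E16 and 3 P0 libraries; marker shapes are the replicate numbers. P0 replicate 3 is the highest P0 point for Apoe, Sparcl1 and Fabp7 and the lowest for Col11a2, Col6a6, Col4a1 and Col4a2, while for Slc1a2 and Glul it lies near the other P0 points.

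Ribosomal protein and mitochondrially encoded RNAs took a smaller share at P0. Of 79 ribosomal protein genes 53 fell and 0 rose, beside 16.6% lower and 16.8% higher over all genes. Their median was -0.37, and 29 fell without P0 replicate 2. Together they held 2.10, 2.04 and 2.10 percent of all gene values at E16 and 1.68, 1.51 and 1.71 percent at P0. Rpl18, of the large subunit, was at 3156, 3412 and 3621 normalized reads at E16 and 2384, 1984 and 2388 at P0 (-0.60, SE 0.09). Of 12 mitochondrially encoded genes 10 fell and 0 rose, and 6 fell without E16 replicate 3, P0 replicate 1 or P0 replicate 2. Their share was 0.437, 0.399 and 0.480 percent at E16 and 0.251, 0.304 and 0.363 percent at P0, and mt-Nd4, a subunit of complex I, fell, at a log2 fold change of -0.69 (SE 0.09). Of 66 nuclear genes of the respiratory chain 17 fell, a count that the libraries decided: it was 3 without E16 replicate 3, 6 without P0 replicate 1, 1 without P0 replicate 2 and 27 without P0 replicate 3. Of 76 mitochondrial ribosomal protein genes 19 fell, and 8, 10 and 9 without E16 replicate 3, P0 replicate 1 and P0 replicate 2. In these settings the 1789 lower calls over all genes dropped as well, to 1145, 1402 and 1224. Of 23 replication-dependent histone genes 13 fell, 7 without P0 replicate 2; these genes have near-identical copies, so their single values are uncertain.

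Long non-coding RNAs included some of the most abundant rises. Of 31 measured 10 rose and 7 fell, beside 16.8% higher and 16.6% lower over all genes. Meg3 (chr12:109541001-109571726), a maternally expressed imprinted RNA, was at 59509, 57952 and 46038 normalized reads at E16 and 135574, 130838 and 145636 at P0, a rise of 1.34 (SE 0.12). Miat was at 11426, 13380.2 and 11387 normalized reads at E16 and 29833, 30003 and 30301 at P0 and Snhg11 at 10669.8, 11900 and 10378 normalized reads at E16 and 30191, 29502 and 30941 at P0. All 3 are known as nuclear RNAs of neurons, and their 3 P0 values lay close together and above those at E16. As a group chosen after their values were seen, they held 0.332, 0.353 and 0.275 percent of gene values at E16 and 0.812, 0.775 and 0.833 percent at P0. Malat1, the most abundant RNA of the table, was at 362368, 327644 and 308334 normalized reads at E16 and 542726, 483471 and 456655 at P0 and rose by 0.57 (SE 0.15), a call lost without E16 replicate 3 or P0 replicate 1. H19, an imprinted RNA of fetal tissue, was at 192, 251 and 289 normalized reads at E16 and 89.6, 118 and 113 at P0 and fell (log2 fold change -1.18, SE 0.18). Rmst, the host of an abundant circular RNA, was at 6825, 5097 and 5519.5 normalized reads at E16 and 5726, 4509 and 2829 at P0, with overlapping ages and P0 replicate 3 lowest (-0.46, SE 0.19, limma adjusted p = 0.0676), and it was at -0.18 without P0 replicate 3 and passed without E16 replicate 2 or P0 replicate 1. Of 39 imprinted genes 13 rose and 10 fell, beside the same shares over all genes. Among them Rtl1, Nap1l5 and Peg3 were at 1.06, 0.94 and 0.74, and Nnat and Peg10 at -0.62 and -0.67. Meg3, H19 and Cdkn1c are also on this list.

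Counts of the other lists are set against the same background of 16.8% higher and 16.6% lower. Of 24 genes of neuropeptides, their receptors and processing 9 rose and 2 fell, with Oprk1, the kappa opioid receptor, at 1661, 1845 and 1500.4 normalized reads at E16 and 2257, 2892 and 3626 at P0 and a rise of 0.79 (SE 0.14); Cck, cholecystokinin, was at 542, 792 and 568 normalized reads at E16 and 633, 567 and 407 at P0 and did not pass. The rises were 6 without E16 replicate 3, P0 replicate 1 or P0 replicate 2, and 1 fell without E16 replicate 3, P0 replicate 2 or P0 replicate 3. Of 69 cadherins and protocadherins, adhesion proteins of neurites, 11 rose, with Cdh18 and Pcdh17 at 1.12 and 0.87, and 3 fell, with Cdh2, N-cadherin, at 5025, 4782 and 5254 normalized reads at E16 and 4017, 4064 and 3672 at P0. Mex3a and Mex3b, RNA-binding proteins of the 14 fetal genes of which 5 fell and 2 rose, were at -0.75 and -0.70. Without E16 replicate 3, P0 replicate 2 or P0 replicate 3 the rises of that list were 1. Of 36 neurotrophic genes 7 rose and 7 fell, with Ret, the GDNF receptor, up by 0.39 and Igfbp2, an IGF-binding protein, at -1.15; the counts were 4 and 4 without E16 replicate 3, and 3 rose without P0 replicate 2. Of 38 Wnt and Notch genes 4 rose and 7 fell, with Wnt5a, a Wnt ligand of midbrain neurons, at 4422, 4526 and 4834 normalized reads at E16 and 3830.4, 3560.3 and 2986 at P0 (-0.42, SE 0.09). Of 32 glycolysis and hypoxia genes 6 rose and 7 fell (4 without E16 replicate 3); the glycolytic enzymes Pfkp and Gpi1 rose by 1.15 and 0.74, and P4ha1, a hypoxia-responsive hydroxylase, fell, at a log2 fold change of -0.59. Of 31 Parkinson disease genes 8 rose and 1 fell, and the 1 fall was lost without most libraries; 3 to 5 rose without any 1 of E16 replicates 1, 2 or 3 or P0 replicates 2 or 3. Of 170 solute carriers 52 rose and 12 fell, and of 39 kinesins and dyneins 14 rose and 5 fell. The falls of the solute carriers were 7, 7 and 6 without E16 replicate 3, P0 replicate 1 and P0 replicate 2. The rises of the kinesins and dyneins were 8 without E16 replicate 1 or P0 replicate 2, and their falls 3 without P0 replicate 1. Of 15 glucocorticoid and thyroid hormone response genes 5 fell and 0 rose, and 1 fell without E16 replicate 3, 2 without P0 replicate 1 and 3 without E16 replicate 2 or P0 replicate 2.

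**Figure D4:**
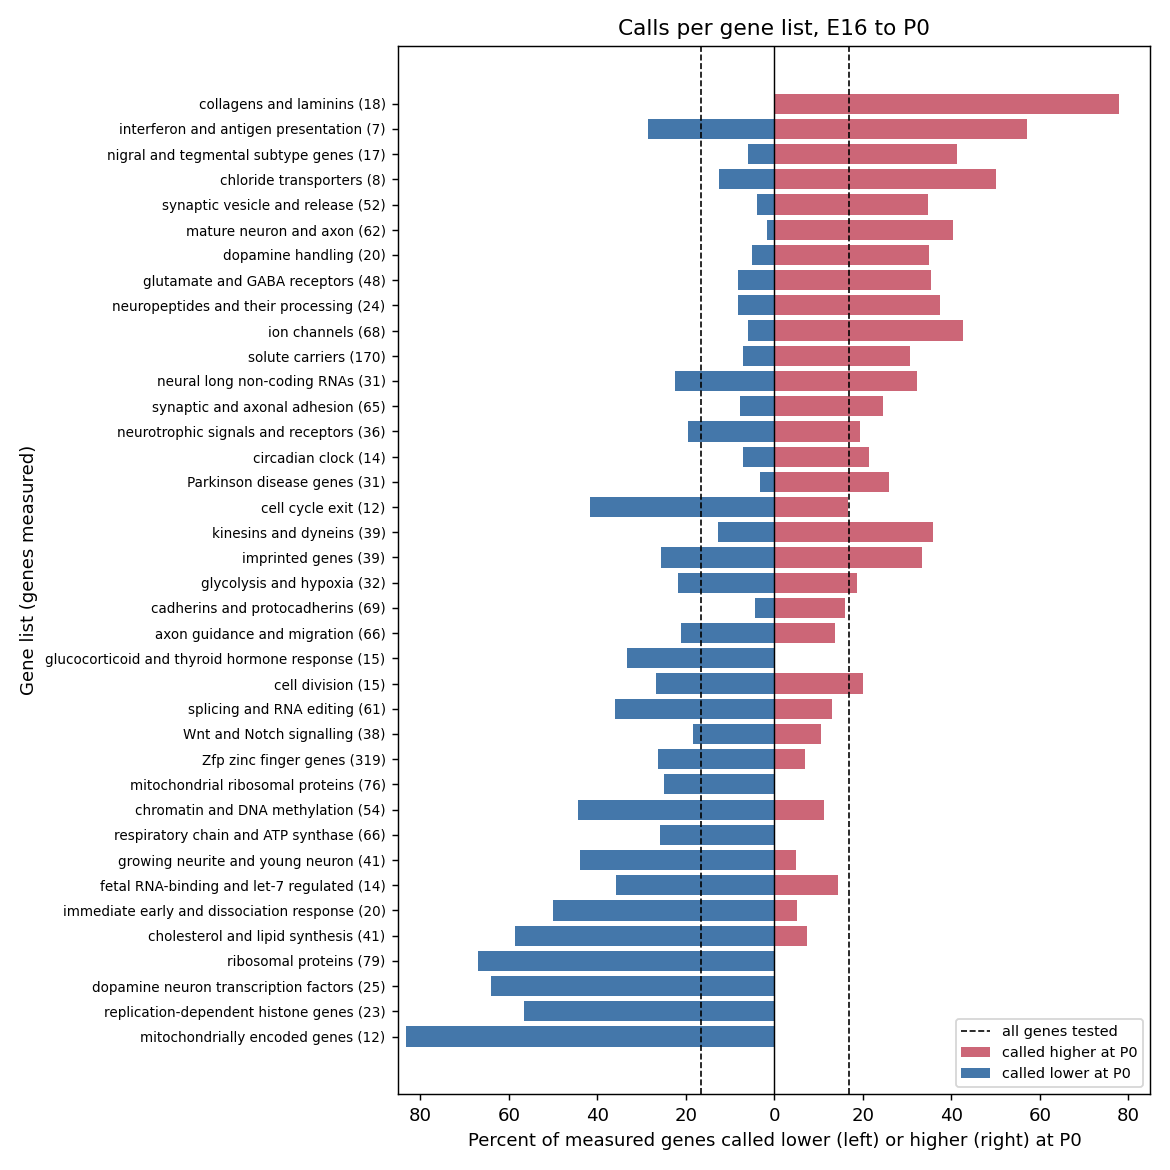
Percent of the measured genes of each of 38 lists that limma called lower (left bars) or higher (right bars) at P0, ordered by the list's median log2 fold change; the number measured is in parentheses and the dashed lines are the shares over all 10781 genes. Collagens and laminins stand at the top with 14 of 18 called higher, and mitochondrially encoded genes at the bottom with 10 of 12 called lower.

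Circular RNAs, closed loops of exons whose back-splice junctions identify them in reads, took a smaller share of reads at birth. The libraries held 1176, 885 and 1093 circular RNA reads per 1000000 gene reads at E16 and 578, 507 and 542 at P0. Every P0 library was below every E16 library, and the means were 1051 ± 149 and 542 ± 35.6 (SD, n = 3 per age; two-sided exact permutation p = 0.10, the smallest that 3 against 3 can give). E14 libraries stood at 1256 ± 113. The host genes held 39.6% ± 0.780 of gene values at E16 and 40.7% ± 0.433 at P0 (exact permutation p = 0.20). Relative to 1000000 host gene reads the values were 2904, 2268 and 2785 at E16 and 1412, 1236 and 1348 at P0. The number of circular RNAs above 0 was 2851, 2179 and 2674 at E16 and 1356, 1662 and 2053 at P0, from 33061, 22231 and 28825 and 11196, 12268 and 18097 circular RNA reads, so that fewer kinds were seen where fewer reads were counted. Because the deposited circular RNA values were scaled on their own, this difference is mostly absent from them: the deposited circular RNA values summed to 896 ± 3.62 per 1000000 deposited gene values at E16 and 815 ± 48.5 at P0.

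**Figure D5:**
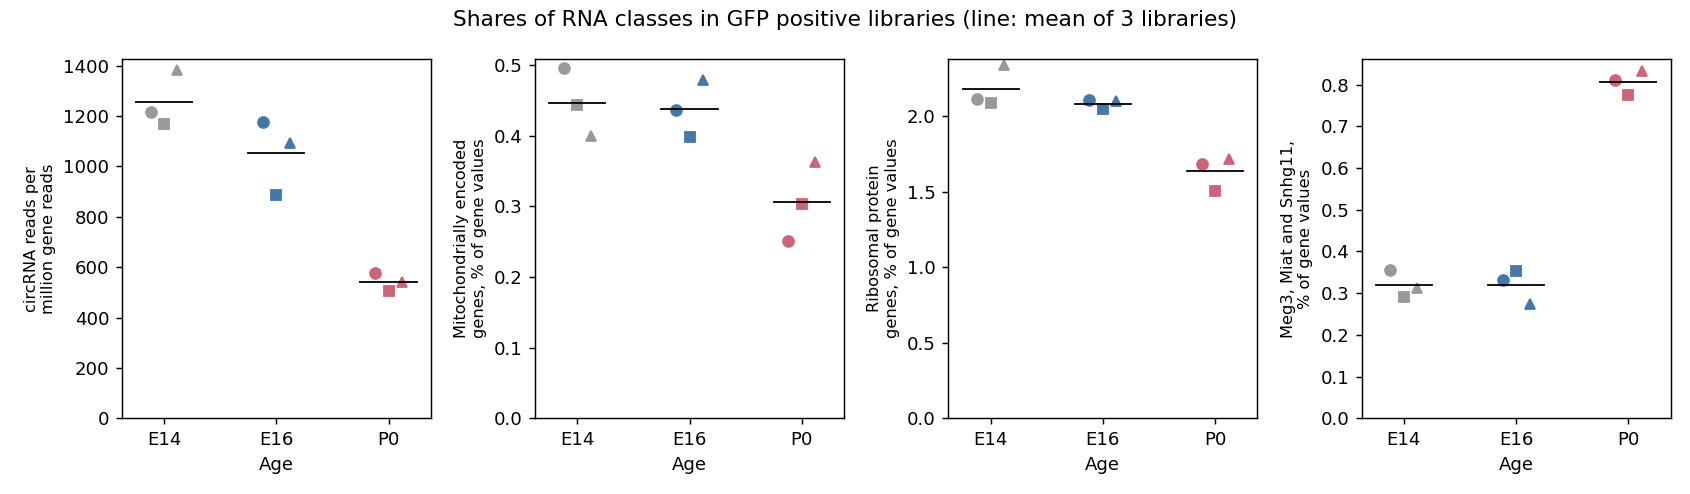
Circular RNA reads per 1000000 gene reads, and the percent of gene values held by mitochondrially encoded genes, by ribosomal protein genes, and by Meg3, Miat and Snhg11, in each of the 3 libraries at E14, E16 and P0; lines are means and marker shapes the replicate numbers. The first 3 are lower in every P0 library than in every E16 library, and the last is higher.

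The scale therefore decides how many single circular RNAs pass. On the deposited scale the median log2 fold change of the 1630 was -0.29, limma called 1 higher (0.0613%) and 3 lower (0.245% in all), 188 had an unadjusted p under 0.05, and 80 lay above (4.91%) and 130 below (7.98%) without overlap of the ages. Rescaled to gene reads the median was -0.85, and 3 were called higher and 82 lower (5.03%; 5.21% in all), with 21 above (1.29%) and 383 below without overlap (24.8% in all). Among the 373 with a mean of at least 10 normalized reads, 167 lay below and 4 above on the gene read scale, and 35 below and 27 above on the deposited scale. Single circular RNAs are given on the deposited scale first and on the gene read scale after it.

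The circular RNAs called lower came from Lin28b, a let-7 regulator, Pbrm1, a chromatin remodeller, and Ttc3, a ubiquitin ligase. circ_00197_Lin28b had 18, 14 and 32 reads at E16 and 0, 0 and 0 at P0, a limma adjusted p of 0.00388 on the deposited scale and 0.000330 on the gene read scale. The linear host Lin28b moved the other way, at 686, 652 and 581 normalized reads at E16 and 735, 796 and 825 at P0 (0.30, SE 0.10), a call lost without E16 replicate 3, P0 replicate 2 or P0 replicate 3. circ_00366_Pbrm1 had 10, 27 and 23 reads at E16 and 0, 0 and 0 at P0. The table lists no value worth less than 2 reads, so a 0 can stand for 1 read, and no fold is given against it. circ_00026_Ttc3, with reads in every library, was at 108, 80.2 and 74.2 normalized reads at E16 and 39.6, 42.4 and 33.2 at P0, a log2 fold change of -1.15 (SE 0.23). The 1 called higher, circ_00768_., has no host name in the table and had 0, 0 and 0 reads at E16 and 15, 11 and 19 at P0. At E14 it had 0, 4 and 0 reads. It thus met the filter of a mean of at least 2 only through the P0 libraries, where it is high, and its call rests on that choice. On the gene read scale the limma adjusted p was 0.00141 for circ_00366_Pbrm1, 0.000367 for circ_00026_Ttc3 and 0.0202 for circ_00768_. with the same signs. The 4 calls on the deposited scale had limma adjusted p-values of 0.00388 to 0.0313, and the count moved with the libraries: it was 0 without E16 replicate 3, 1 without any of the E14 libraries or E16 replicate 1, and 2 without E16 replicate 2. In the authors' deposited table circ_00768_. and circ_00197_Lin28b have adjusted p-values of 0.0311 and 0.0436, and 1 circular RNA is called in each direction.

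Of the 5 most abundant circular RNAs 0 passed on the deposited scale and 3 fell on the gene read scale, those from Hdgfl3, Rims2 and Rmst. circ_00001_Tulp4 was at 665, 548 and 696 normalized reads at E16 and 639, 722 and 906 at P0, and circ_00002_Hdgfl3 at 533, 450.5 and 531 normalized reads at E16 and 325, 316 and 439.7 at P0. The log2 fold changes were 0.24 (SE 0.12) and -0.50 (SE 0.13), and circ_00002_Hdgfl3 passed without P0 replicate 3 (limma adjusted p = 0.0327). On the gene read scale circ_00001_Tulp4 changed sign to -0.58 (SE 0.18, limma adjusted p = 0.0616), and circ_00002_Hdgfl3 was at -1.32 (SE 0.18, limma adjusted p = 0.000330). circ_00006_Gigyf2 also changed sign, from 0.20 to -0.62, and passed on neither scale. circ_00004_Rmst, the most abundant from Rmst, was at 229, 237 and 248 normalized reads at E16 and 189.9, 200.4 and 134 at P0, with P0 replicate 3 lowest and a log2 fold change of -0.46 (SE 0.15) that did not pass (limma adjusted p = 0.228), or -0.28 without that library. Rescaled to gene reads it fell, at a log2 fold change of -1.28 (SE 0.21, limma adjusted p = 0.00125). Its ratio to linear Rmst was not called, with a log2 difference of 0.00 (SE 0.27) on the deposited scales. That difference depends on the scale: rescaled to gene reads the circle was at -1.28, and linear Rmst was at -0.46. A pair of loops from Rims2, a release site protein, had opposite signs: circ_00189_Rims2 was at 11.3, 8.59 and 6.88 normalized reads at E16 and 46.2, 34.2 and 30.8 at P0, and circ_00003_Rims2 at 339, 336 and 267 normalized reads at E16 and 246, 272 and 266 at P0. Neither was called on that scale (limma adjusted p = 0.0539 and 0.443). On the gene read scale they were at 1.17 (limma adjusted p = 0.128) and -1.07 (limma adjusted p = 0.00165), and the difference between them was not tested.

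Of 1558 circular RNAs with a host in the gene table, the ratio of circle to host was called for 0 higher and 1 lower (0.0642%), circ_00197_Lin28b at a log2 difference of -4.37 (SE 0.45), with 171 at an unadjusted p under 0.05. The size of that difference depends on the pseudocount, since the circle is listed at 0 in every P0 library. The count was 2 without P0 replicate 2 and 7 without P0 replicate 3. circ_00007_Ezh2 was at 224, 167 and 191 normalized reads at E16 and 107, 159.7 and 81.8 at P0, and its log2 ratio to the host differed by 0.42 (SE 0.22) on the deposited scales without passing. The direction of that ratio depends on the scale: rescaled to gene reads the circle was at a log2 fold change of -1.59 (limma adjusted p = 0.000876) and its host Ezh2 at -1.19.

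A last contrast set the change after E16 against the change from E14 to E16, which share the E16 libraries. Neither change was divided by the days it spans, so a difference is not one of daily rate. limma called 1468 of 10781 genes (13.6%), 862 with the larger and 606 (5.62%) with the smaller value after E16. Without E16 replicate 3, P0 replicate 2 or E14 replicate 2 the count was 625, 887 and 976. Apoe was at -0.08 before and 3.18 after E16, Miat at -0.66 and 1.32, and Sv2c at 2.34 and 1.01. Aldh1a1 was at 2.07 and 0.97, and the difference of -1.10 (SE 0.21) passed (limma adjusted p = 0.00463).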

How the data were processed

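RNA of sorted GFP positive cells was depleted of ribosomal RNA and made into libraries with ScriptSeq v2, per the labels' protocols, which keeps RNAs without a poly(A) tail. Trimming with Trim Galore, mapping tool TopHat2, tool DESeq2, and builds mm10 and GRCm38 stand in the submitters' processing notes; versions, the circular RNA caller, the counting rule and the use of strand are not given in the sources used here. The authors deposited normalized reads per gene and per circular RNA, a signal with 1 scaling factor per library and table, and a comparison of E16 with P0 holding log2 fold changes and p-values in the authors' deposited tables. Reads per library were recovered from the spacing of the deposited signal (100% of values whole within 0.1 of a read), and no count model was run.

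Genes (mean of at least 5) and circular RNAs (mean of at least 2) of the 9 time series libraries were fitted, on log2(normalized reads + 1), by limma-trend under R 4.3.3 (version 3.58.1 of limma, two-sided tests), with Benjamini-Hochberg adjustment over all features and a threshold of 0.05. The pseudocount understates changes of low circular RNAs. The fit was tested on simulated data. Sums per library were compared by exact permutation. Intervals cover the spread between libraries only. Positions come from GENCODE M21 (10775 of 10781 genes matched) and promoters from RefSeq. Named are fixed dopamine neuron genes and the 12 largest changes per direction without overlap of the ages. Also named are the first 2 measured and up to 4 called genes per direction of each list, and the 5 most abundant. Added to these are the 5 largest differences per direction between the changes after and before E16. Circular RNAs are named for the smallest p or highest mean. Another 6 genes (Hmgcs1, Xist, Ddx3y, Kdm5d, Uty and Srebf2), and single list members given without values, were named after their values were seen. Members, lists and tests were chosen with earlier results of these data known. Alternatives were a replicate block, leaving out libraries, pseudocounts, scalings (trimmed means of M-values, computed without count weights, or quantiles), filters and the authors' deposited tables. Some genes are not reported here.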

Additional observations from a re-analysis of the deposited data

Results flagged for a closer look

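The change after E16 differed from the change before it, by a test of the difference itself (limma, adjusted p under 0.05), for 1468 genes. The 5 largest positive differences were those of Apoe (3.26; -0.08 before and 3.18 after E16), Col11a2 (2.72; -0.57 and 2.15), Eif2s3y (2.42; -1.13 and 1.30), Col2a1 (2.06; -0.98 and 1.08) and St18 (2.02; -2.02 and 0.01). Eif2s3y is Y-linked, and the summed Y-linked RNAs were lowest in the E16 libraries. The 5 largest negative differences were those of Chrm2, a muscarinic receptor (-2.53; 2.13 and -0.40), Gm42635 (-2.21; 0.94 and -1.28), Gm43320 (-2.04; 1.38 and -0.65), Gm43046 (-1.99; 1.44 and -0.55) and Ndrg1 (-1.92; 1.77 and -0.15). Gm42635 lies within Pcdh7 and the other 2 unnamed transcripts within Kcnip4, all 3 on the strand of that gene.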

How the results depend on the processing

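The 3605 gene calls ranged from 2496 to 3660 when 1 library was left out, from 1272 to 1854 higher and from 1145 to 1861 lower, and the authors' deposited table calls 3892, of which 3585 are shared, all with the same sign. The 1468 calls of a difference between the changes after and before E16 ranged from 625 to 1801. The 4 circular RNA calls ranged from 0 to 6 when 1 library was left out and were 13 with a pseudocount of 10, 13 with trimmed-mean scaling, 7 with quantile normalization, 0 with only the E16 and P0 libraries, 23 without a filter, 85 rescaled to gene reads and 2 in the authors' deposited table. The 1 ratio call ranged from 1 to 7 and was 5 with a pseudocount of 0.5, 17 with one of 10, 0 with only the E16 and P0 libraries, 8 without a filter and 2 with a mean of at least 10. Alternatives chosen after seeing the data gave 8 ratio calls on the gene read scale, and 2633 genes, 0 circular RNAs and 0 ratios without the E14 libraries and P0 replicate 3 together. The cause of these moves was not tested. With a replicate block 3757 genes, 6 circular RNAs, 1 ratio and 1559 differences between the changes after and before E16 were called. In that fit Slc6a3, Rmst, Srebf2, Gm43320 and Gm43046 passed and Nr4a2 did not. Same-numbered E16 and P0 libraries deviated together with correlations of 0.09, 0.01 and 0.24, and the replicates share only a number. The fall in circular RNA reads per 1000000 gene reads, -509 as reported, ranged from -592 to -447 when 1 library was left out. Direction turned for 5 named results that passed neither as reported nor under that setting: circ_00001_Tulp4 (-0.58 rescaled to gene reads, -0.00160 with trimmed-mean scaling), circ_00006_Gigyf2 (-0.62 and -0.0443), Sox6 (as low as -0.36 and as high as 0.11 with 1 library left out), Mrc1 (-0.55 to 0.32 likewise, 0.0148 in the authors' deposited table) and St18 (-0.26 to 0.36 likewise). Precision is limited by 3 libraries per age and, for circular RNAs, by the 11196 to 33061 reads of a library.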
